A study of Rattus norvegicus with 30 samples.

Results

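Transcript levels were compared between rat hepatocytes held for 48 h with 500 µM acetaminophen and hepatocytes held for 48 h with vehicle. The comparison took the 10 of the series' 30 arrays whose titles carry that dose and time or the 1% DMSO label at that time, 5 in each group. The cells were frozen hepatocytes of male Sprague Dawley rats from a supplier, thawed, plated on collagen under Matrigel and dosed on day 3 of culture, and per the labels the concentrated acetaminophen dosing solutions were themselves prepared in 1% DMSO. Whether dosed and vehicle wells ended with the same share of DMSO is not stated in the labels. Each array held RNA of 1 well, and the 5 wells of a group were set up as separate cultures of purchased cells, so p-values reflect well-to-well variation within this cell supply, not variation among animals. The 5 arrays of 500 µM and the 5 of vehicle at 24 h were used as a second exposure time, and the 5 arrays of 5000 µM at 48 h, which share the 48 h vehicle arrays, are given only beside the values they concern. The rule that chose the arrays used titles alone and no measured value.

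Acetaminophen is an analgesic that the liver clears by glucuronidation and sulfation, while a part is oxidised by cytochrome P450 enzymes to a reactive quinone imine that glutathione traps. PPARα is a nuclear receptor of hepatocytes that is activated by fatty acids and fibrates and, paired with RXR, binds a direct repeat of the hexamer AGGTCA with 1 base between the copies. In rodent liver its targets carry fatty acids from uptake and activation through peroxisomal and mitochondrial β-oxidation, microsomal ω-hydroxylation and ketone body formation.

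Genes of fatty acid oxidation rose at 500 µM and 48 h. The mean signal of Ehhadh, which encodes a bifunctional enzyme in the peroxisomal β-oxidation spiral, was 2219 ± 224 (SD, n = 5) in vehicle and 8684 ± 1047 (SD, n = 5) with acetaminophen. Cyp4a1, a fatty acid ω-hydroxylase, and Acsl1, which activates long-chain fatty acids to acyl-CoA, reached about the same log2 rise of 1.11 ± 0.11 (SE) and 1.00 ± 0.07 (SE). Srebf1, Fasn and Me1, which serve fatty acid synthesis, rose as well, and Apoa5, S100a6 and Cryab fell. Many further genes were called, and most of those calls were lost when the arrays' RNA control ratio, given before the other results, was a covariate.

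The promoters of 3 genes that rose and 1 that fell are shown because PPARα's hexamer can be read in 3 of them. Each is the 150 bases upstream of the start site in the GRCr8 build from RefSeq, 5′ to 3′ on the gene's strand. Capitals mark the 13-base repeat AGGNCANAGGNCA (N is any base) where it is present and otherwise the hexamer AGGTCA, both searched on both strands. Any match of the repeat with AGGTCA at either end also holds the hexamer. The Ehhadh stretch lies at chr11:92746259-92746408 (+ strand), that of Fabp1 at chr4:104749190-104749339 (+), that of Cyp4a3 at chr5:134352237-134352386 (- strand) and that of Apoa5 at chr8:55457721-55457870 (+), the first by position of the 2 windows listed for Apoa5.
Fabp1: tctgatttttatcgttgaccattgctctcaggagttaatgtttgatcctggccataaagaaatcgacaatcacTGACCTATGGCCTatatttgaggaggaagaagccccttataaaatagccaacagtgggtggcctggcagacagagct
Cyp4a3: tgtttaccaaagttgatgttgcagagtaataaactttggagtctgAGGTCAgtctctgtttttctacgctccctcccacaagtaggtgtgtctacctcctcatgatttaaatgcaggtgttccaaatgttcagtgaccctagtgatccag
Apoa5: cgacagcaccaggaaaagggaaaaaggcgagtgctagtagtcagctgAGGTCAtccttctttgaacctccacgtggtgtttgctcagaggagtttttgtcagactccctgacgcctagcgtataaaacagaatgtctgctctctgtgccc
Ehhadh: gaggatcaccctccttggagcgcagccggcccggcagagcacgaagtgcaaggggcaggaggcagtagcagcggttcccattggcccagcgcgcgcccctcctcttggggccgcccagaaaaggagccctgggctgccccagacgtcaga
In Fabp1, the liver fatty acid binding protein, the repeat reads TGACCTATGGCCT on the printed strand, from 77 to 65 bases upstream of the start site. The hexamer lies 105 to 100 bases upstream in Cyp4a3 and 103 to 98 bases upstream in Apoa5. Neither sequence was found in the table's window for Ehhadh, which says only that these letters are not in that window. Over all 33469 promoter windows in the table, 250 bases before to 50 after a start site, the repeat was present in 0.415% and the hexamer in 16.2%. Of the 34 PPARα list genes that rose in both fits described below, 29 had a window; the repeat was in 1 of the 29, Fabp1, and the hexamer in 10. A match is a description of the sequence and not of binding.

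The RNA control ratio differed between the 2 groups. The array carries probe sets for the 3′ end, the middle and the 5′ end of β-actin, and a higher 3′/5′ ratio means that less of the labelled RNA reached the 5′ end. The log2 ratio was 1.34, 1.31, 1.29, 1.18 and 1.09 on the vehicle arrays at 48 h and 1.78, 1.81, 1.98, 2.00 and 1.74 on the 500 µM arrays. The groups did not overlap. The difference was 0.62, with an exact two-sided permutation p of 0.00794, the smallest that 5 against 5 arrays allow, and 0.0119 after Benjamini-Hochberg adjustment over 3 control transcripts. The 3′ probe set of β-actin differed by -0.13 on the log2 scale, the middle one by -0.48 and the 5′ one by -0.75. The GAPDH ratio differed by 0.15 (exact permutation p = 0.00794, adjusted p = 0.0119), and the hexokinase ratio, whose probe sets had mean signals of 11.5 to 88.2, by -1.26 (exact permutation p = 0.103). At 24 h the β-actin ratio was 1.78 ± 0.24 (SD, n = 5) in vehicle and 1.61 ± 0.33 (SD, n = 5) at 500 µM, a difference of -0.16 (exact permutation p = 0.413). It was 1.21 ± 0.05 (SD, n = 5) at 5000 µM and 48 h, beside 1.24 ± 0.11 (SD, n = 5) in the vehicle arrays of that time. Of the 48 h groups, only the 500 µM wells had a raised ratio.

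**Figure D1:**
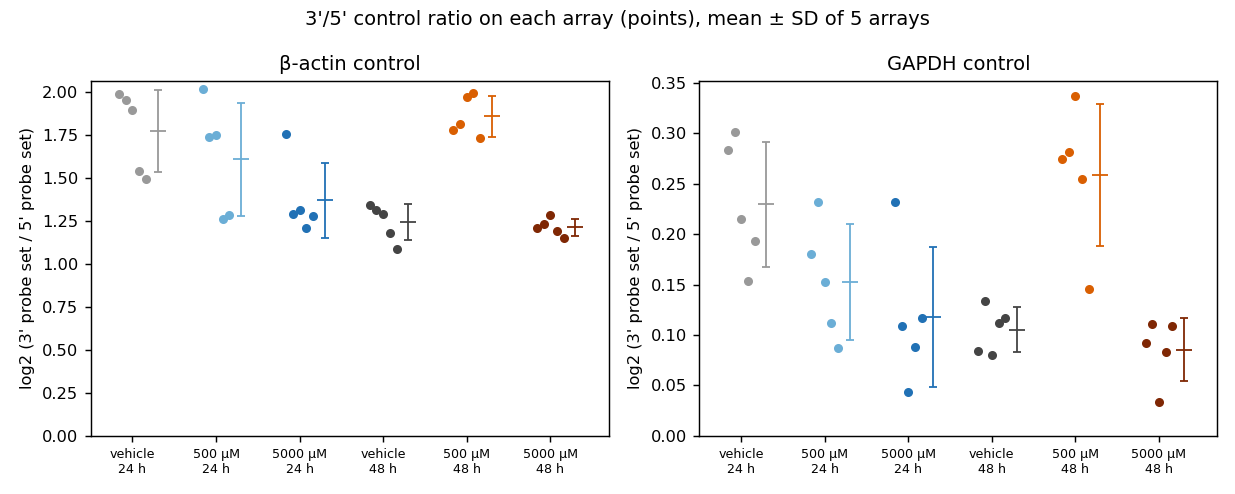
Control ratio (3′ over 5′ probe set, log2) of β-actin (left) and GAPDH (right) on each of the 30 arrays, by dose and time; points are arrays and bars are mean ± SD of 5. At 48 h the 500 µM arrays lie between 1.74 and 2.00 for β-actin and the vehicle arrays between 1.09 and 1.34.

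Genes were therefore fitted without and with the ratio. A call required an adjusted p under 0.05 from limma, with the method of Benjamini and Hochberg applied across all 8531 genes tested, and adjusted p-values of single genes below are of this kind. Without the ratio 3632 genes were called, which is 42.6% of those tested: 2044 higher (24%) and 1588 lower (18.6%). Only 32 of them changed at least 2-fold, 23 higher and 9 lower. With each array's β-actin ratio as a covariate 339 genes were called (3.97%), 212 higher (2.49%) and 127 lower (1.49%), and 323 (3.79%) were called in the same direction in both fits, 204 higher and 119 lower. No gene was called in opposite directions. Standard errors can be larger in the fit with the ratio, 0.34 beside 0.24 for Nfic, so a lost call does not show a smaller change. The counts of list members below stand beside these shares of all genes. Below, "in both fits" means called both ways in 1 direction, and 299 of the 323 genes were called with the GAPDH ratio as the covariate too. The count of 323 rests on few arrays: it was 155 without the first vehicle array, 170 without the third, 170 without the fifth 500 µM array, and 149 (130 higher, 19 lower) after median centring of the arrays. The same centring turned the split of the calls without the ratio to 2222 higher and 843 lower.

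The ratio's relation to each gene was also measured where dose and time did not enter. Among the 15 arrays at 24 h, with group means removed, 1151 genes (13.5%) had a slope on the β-actin ratio that was called. Within each 24 h group the ratio was highest on the first array by title number. From the first to the fifth array it went from 1.99 to 1.49 in vehicle and from 2.02 to 1.28 at 500 µM. At 5000 µM it went from 1.76 to 1.28. The fits held no term for array order, so a slope on the ratio cannot be told apart from a relation to that order. Of the 2044 genes called higher at 500 µM and 48 h, 1875 (91.7%) had a positive slope, and of the 1588 called lower, 1407 (88.6%) had a negative slope. Among the 4899 genes not called, 2595 had a positive slope. Of the genes called in both fits, 155 of the 204 higher (76.0%) had a positive and 75 of the 119 lower (63.0%) a negative slope. The slopes come from other arrays than the changes without the ratio. The fit with the ratio covered all arrays jointly, those at 24 h among them. The β-actin log2 ratio varied more within the 24 h groups (SD 0.22 to 0.33) than within the 48 h groups (SD 0.05 to 0.12). The 24 h arrays thus entered both the slopes and the choice of genes called in both fits. The lower shares of matching slopes among those genes are therefore not a separate test. Which part of a change belongs to the dose and which moves with the ratio cannot be told apart from the 48 h arrays alone, since the ratio separates the groups.

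**Figure D2:**
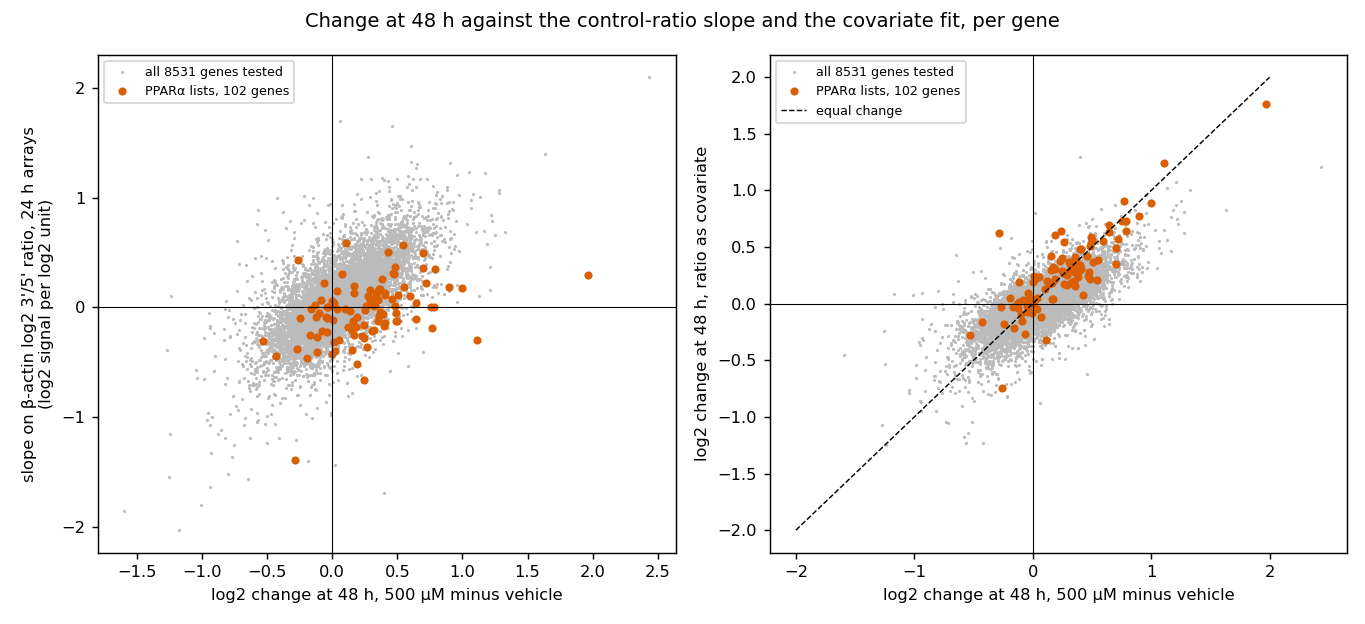
Each point is 1 gene. The x axis of both panels is the log2 change at 500 µM and 48 h; the y axis is the slope on the β-actin log2 ratio among 24 h arrays (left) or the log2 change with the ratio as a covariate (right), with a dashed line of equal change. Grey points, all 8531 genes, rise along the slope axis on the left. Of the 102 PPARα list genes in orange, 47 have a positive slope, beside 54.5% of all genes. Ehhadh stands at 1.97 without and 1.76 with the ratio.

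The 7 lists of PPARα target and fatty acid oxidation genes held 129 different members, 118 of them represented by a named probe set and 102 bright enough to be tested. Of the 102, 58 were called higher and 6 lower, against 24% and 18.6% of all genes. With the ratio 37 were called higher and 0 lower, against 2.49% and 1.49% of all genes, and 34 rose in both fits; at an unadjusted limma p under 0.05 with the ratio, 54 were higher and 2 lower. The lists were chosen with earlier results of these arrays known, so their counts are a description. The median log2 change of the 102 was 0.26, and 0.25 with the ratio, beside 0.01 and -0.00056 over all genes tested. Of the 102 genes, 47 had a positive slope on the ratio at 24 h, beside 4651 of all 8531 genes (54.5%). The signals of the 2 groups did not overlap for 45 of them, beside 27.4% of all genes. Leaving out any 1 of the 10 arrays left 53 to 59 called higher and 29 to 36 higher in both fits, with 0 lower in both fits.

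Rises of these genes were also measured in the separate wells at 24 h, where the ratio did not separate the groups. There 39 of the 102 genes were called higher and 0 lower by limma (54 and 2 at an unadjusted p under 0.05), while 244 of all genes were called (2.86%), 141 higher (1.65%) and 103 lower (1.21%). Of the 58 genes called higher at 48 h, 31 were called higher at 24 h. Over all genes, 54 of the 323 called in both fits (16.7%) were called in the same direction at 24 h and 3 in the opposite one; of the 3309 genes called only without the ratio, 28 (0.846%) were called in the same and 52 in the opposite direction. At 5000 µM and 48 h, whose ratio lay near that of vehicle and whose comparison shares the vehicle arrays, 59 of the 102 were called higher and 17 lower, beside 14.6% and 18% of all genes.

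Among the ω-hydroxylation genes, 5 of 8 tested were called higher and 1 lower, and 3 rose in both fits. The signals of Cyp4a1 were 10116, 12044, 9618, 12774 and 11356 in vehicle and 23223, 21766, 25546, 29172 and 21277 at 500 µM. Every treated array lay above every vehicle array. The log2 change was 1.11 ± 0.11 (SE, adjusted p = 2.28e-08), 1.24 ± 0.16 with the ratio (adjusted p = 1.29e-05), 1.19 at 24 h and 1.51 at 5000 µM. Cyp4a3, a second hydroxylase of the family, rose by 0.77 ± 0.10 (SE, adjusted p = 9.55e-07), 0.91 with the ratio and 0.75 at 24 h. Both genes had negative slopes on the ratio at 24 h (-0.29 and -0.19), neither of them called by limma (adjusted p = 0.282 and 0.494). Near-identical members of the Cyp4a family may share probes. Por, the reductase that feeds electrons to microsomal P450 enzymes, rose by 0.55, and by 0.39 with the ratio (adjusted p = 0.0286), and was 0.07 at 24 h; with the mean of its 2 probe sets it lost its call (0.20, adjusted p = 0.0546).

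Of the 20 tested genes of peroxisomal oxidation, 12 were called higher and 1 lower, and 9 rose in both fits. Ehhadh had signals of 2345, 2428, 2157, 1859 and 2306 in vehicle and 7987, 8346, 9086, 10310 and 7693 at 500 µM, without overlap. Its log2 change was 1.97 ± 0.12 (SE, adjusted p = 7.73e-13), and 1.76 ± 0.17 with the ratio (adjusted p = 7.02e-08), the largest rise of any gene called in both fits with groups that do not overlap. At 24 h it was 1.03 ± 0.12, and the effect at 48 h exceeded that at 24 h by 0.94 ± 0.17 (SE, adjusted p = 0.000185), a difference not called with the ratio as a covariate. At 5000 µM and 48 h it was 1.81, beside the 1.97 at 500 µM. Hacl1, which cleaves 2-hydroxy fatty acids in α-oxidation, rose by 0.78 ± 0.07 (adjusted p = 1.55e-09), 0.73 with the ratio and 0.60 at 24 h, with a slope on the ratio of 0.0033. Abcd3, a peroxisomal acyl-CoA transporter, rose by 0.40, and Hsd17b4, the second bifunctional enzyme, also by 0.40; both were called in both fits and at 24 h. Ech1, Crot, Decr2, Slc27a2 and Nudt7 rose in both fits by 0.17 to 0.40. A second, dimmer probe set of Crot had -0.37 at 48 h without a call, 0.21 with the ratio and 0.77 at 24 h. The value of Crot at 48 h thus depends on the probe set. The catalase gene Cat was not called (0.01).

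Of the 22 tested genes of mitochondrial oxidation, 16 were called higher and 2 lower (Echs1, -0.16, and Etfa, -0.17), and 11 rose in both fits. Most genes of the carnitine shuttle were among them. Cpt1a, the liver form of its outer-membrane enzyme, had signals of 4342, 4578, 3476, 4004 and 5374 in vehicle and 6337, 6190, 7341, 7078 and 6810 at 500 µM, with no overlap. Its change was 0.64 ± 0.10 (SE, adjusted p = 1.57e-05), 0.63 with the ratio (adjusted p = 0.0107) and 0.10 at 24 h, where it was not called, and the difference between the times was 0.54 ± 0.14 (adjusted p = 0.00435), again not called with the ratio. A second, dimmer probe set of Cpt1a gave 0.23 without a call, and 0.70 with the ratio. Cpt1b rose by 0.79, Cpt2 of the inner membrane by 0.70, the carnitine acetyltransferase gene Crat by 0.65 and the carnitine importer gene Slc22a5 by 0.49, all in both fits. Slc25a20, the carnitine-acylcarnitine carrier, was not called at 48 h (0.02) and was called higher at 24 h (0.45). Hadha and Hadhb, the subunits of the trifunctional protein of long-chain oxidation, rose by 0.72 and 0.18 in both fits. With the mean of its 3 probe sets, of which the others were dim, Hadha was at 0.40 (adjusted p = 0.0817). Acadvl (0.37), Acadm (0.36), Acaa2 (0.41) and Eci1 (0.23) rose in both fits and at 24 h.

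Of 17 tested genes of fatty acid uptake, binding and activation, 6 were called higher and 1 lower, and Acsl1 and Fabp1 rose in both fits. Acsl1 had signals of 11730, 11924, 10470, 10708 and 11902 in vehicle and 21482, 22823, 24256, 22350 and 22295 at 500 µM, so the groups lay far apart relative to their spread. Its change was 1.00 ± 0.07 (SE, adjusted p = 5.96e-12), 0.89 with the ratio, 0.69 at 24 h and 0.96 at 5000 µM. A second bright probe set of Acsl1 gave 1.09, and 1.32 with the ratio. Fabp1, whose promoter is printed above, had signals of 8519, 8420, 8676, 7728 and 7981 in vehicle and 11777, 11775, 10987, 12297 and 11317 at 500 µM. It rose by 0.49 ± 0.06 (SE, adjusted p = 8.62e-07), 0.54 with the ratio and 0.49 at 24 h, and its value at 5000 µM and 48 h was -0.08. Fabp2, the intestinal form, was the 1 gene of this list called lower (-0.53, adjusted p = 0.0294), and it lost that call with the ratio (-0.28, adjusted p = 0.63). It also lost it without the fourth or the fifth vehicle array and without the third or the fourth 500 µM array, at values up to -0.44. The transporter gene Cd36 was not called at 48 h (-0.29, and 0.63 with the ratio) and was called higher at 24 h (0.72).

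Of 6 acyl-CoA thioesterase genes tested, which release free fatty acids, 2 were called higher, and Acot2 rose in both fits by 0.49 and 0.59. The mean of its 3 probe sets was 0.23 (adjusted p = 0.059). Of 5 genes of ketone body formation and export tested, 3 were called higher and Acat1, which condenses acetyl-CoA, rose in both fits by 0.25 and 0.40. Fgf21, a fasting hormone under PPARα, was not called at 48 h (0.19, and 0.61 with the ratio) and was called higher at 24 h (0.61).

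Of the 24 tested genes of the fuel switch and of lipid droplets, 14 were called higher and 1 lower, and 7 rose in both fits. Pdk4, the kinase that shuts off pyruvate oxidation, had signals of 6013, 4503, 4261, 4315 and 4870 in vehicle and 9782, 9132, 9288, 8197 and 7980 at 500 µM, without overlap. It rose by 0.90 ± 0.08 (SE, adjusted p = 9.95e-10), 0.77 with the ratio and 0.84 at 24 h. A second, dimmer probe set of Pdk4 gave 0.06, 0.56 with the ratio and 0.86 at 24 h. Angptl4, a secreted inhibitor of lipoprotein lipase, rose by 0.50 ± 0.06 (adjusted p = 5.44e-07), 0.57 with the ratio, 0.59 at 24 h and 1.06 at 5000 µM. Pnpla2, the triglyceride lipase ATGL, rose by 0.76, and its inhibitor G0s2 by 0.59. Fitm2 (0.50), Creb3l3 (0.46) and Txnip (0.35) rose in both fits as well. Plin2, a lipid droplet coat protein and common PPARα target, was not called at 48 h (0.04, adjusted p = 0.718), with the ratio (0.05) or at 24 h (0.07). After quantile normalization, without the ratio, limma called it higher at 48 h (0.13, adjusted p = 0.0125). Ppara itself and Acot1 were on the array but too dim to be tested.

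**Figure D3:**
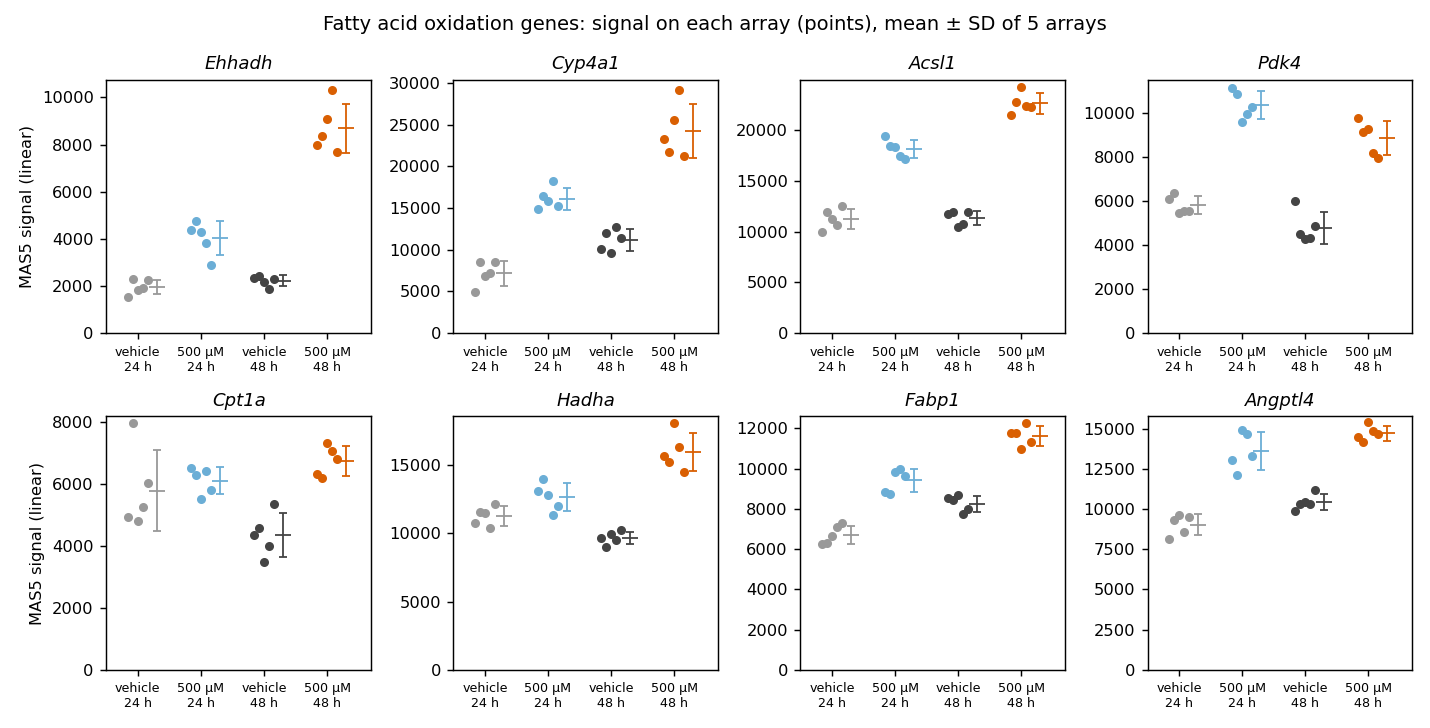
Signal of 8 fatty acid oxidation and transport genes on each of 20 arrays, vehicle and 500 µM at 24 and 48 h, on linear axes from 0; points are arrays and bars are mean ± SD of 5. At 48 h the 500 µM points lie above all vehicle points in each panel; for Cpt1a and Hadha the 24 h groups were not called as different.

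Of 21 tested genes of peroxisome biogenesis and membrane, 7 were called higher and 2 lower, and Pex11a, Pex19, Pex5 and Lonp2 rose in both fits. Pex11a, which drives peroxisome division, rose by 0.37 ± 0.05 (adjusted p = 7.6e-07), 0.37 with the ratio, 0.37 at 24 h and 0.79 at 5000 µM. Its second probe set had a value of -0.40 without and 0.33 with the ratio and 0.88 at 24 h, and the mean of both was -0.01, so the value at 48 h depends on the probe set. The import receptor gene Pex5 rose by 0.57, and was 0.16 (adjusted p = 0.279) with the mean of its probe sets.

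Several fatty acid synthesis genes rose beside those of oxidation. Of 25 tested, 16 were called higher and 3 lower, beside 24% and 18.6% of all genes, and in both fits 6 rose and 1 fell, beside 3.79% of all genes. Srebf1, the transcription factor of lipogenesis, had signals of 3932, 5117, 3738, 3676 and 3903 in vehicle and 6262, 6016, 9658, 7486 and 8876 at 500 µM. The lowest treated array lay above the highest vehicle array. Its change was 0.90 ± 0.11 (SE, adjusted p = 7.6e-07) and 0.77 with the ratio (adjusted p = 0.00402), and a second probe set gave 0.40 and 0.62. Fasn, the fatty acid synthase, rose by 0.76 ± 0.13 (0.73 with the ratio, adjusted p = 0.0274), and Me1, the malic enzyme that supplies NADPH, by 0.78 ± 0.09 (0.69 with the ratio, adjusted p = 0.000917). A second probe set of Me1, nearly as bright, gave 0.16 without a call, and 0.43 with the ratio. At 24 h none of Srebf1, Fasn and Me1 was called, with values of 0.15, -0.01 and 0.17. The 48 h effect exceeded the 24 h effect by 0.75, 0.77 and 0.60 (adjusted p = 0.000652, 0.00238 and 0.000426), though none of these differences was called with the ratio as a covariate. At 5000 µM and 48 h the values were 0.04, 0.21 and -0.10. The elongases Elovl6 (0.49) and Elovl5 (0.33) and the acyltransferase Agpat2 (0.27) also rose in both fits. The desaturase Scd2 fell by its brightest probe set, with a change of -0.73 ± 0.17 (adjusted p = 0.000959), of -1.04 with the ratio and of -1.01 at 24 h. That probe set was dim, with a mean signal of 544 beside 469 for the dimmest gene tested. The other, dimmer probe sets of Scd2 had -0.46 to -0.62 at 48 h without a call, and -0.44 to 0.01 at 24 h. Another desaturase gene, Scd, was called higher without the ratio and was not called in both fits.

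Of the lipoprotein genes, 22 were tested, 8 were called higher and 2 lower, and in both fits Lrp1 and Mttp rose and Apoa5 fell. Apoa5, an apolipoprotein that lowers plasma triglycerides and is itself a known PPARα target in human liver cells, had signals of 10446, 9978, 10010, 11272 and 10161 in vehicle and 5566, 5141, 5890, 5417 and 5014 at 500 µM. All treated arrays lay below all vehicle arrays. The gene fell: the log2 change was -0.94 ± 0.07 (SE, adjusted p = 1.74e-10), -0.87 with the ratio (adjusted p = 4.79e-06), -0.44 at 24 h and -1.38 at 5000 µM. The further fall between 24 and 48 h was -0.50 ± 0.10 (adjusted p = 0.000602) and was not called with the ratio. Apoa1, Apoa2, Apoa4, Apoc3 and Apoe were not called, with changes of -0.12 to 0.04. Lrp1, an endocytic receptor, rose by 1.28 and by 0.62 with the ratio. Its slope on the ratio at 24 h was 1.05, and its vehicle mean itself differed between the times, 2301 ± 313 (SD, n = 5) at 24 h and 1156 ± 235 (SD, n = 5) at 48 h. Mttp, which loads lipid onto apolipoprotein B, rose by 0.70 and by 0.37 with the ratio.

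S100a6, Cryab, Akr1b8 and Vim were among the genes that fell in both fits. S100a6, a small calcium-binding protein, had signals of 11525, 9915, 11595, 11804 and 11580 in vehicle and 6161, 5778, 4629, 3801 and 3916 at 500 µM, with no overlap. It fell, with a log2 change of -1.24 ± 0.12 (SE, adjusted p = 5.59e-09), of -1.25 with the ratio and of -2.71 at 5000 µM; its value at 24 h was -0.34 (adjusted p = 0.108). Cryab, the chaperone αB-crystallin, fell in both fits (-0.95 ± 0.10, adjusted p = 4.06e-08, and -0.86 with the ratio). Its vehicle signals of 6334 to 7937 lay above the treated signals of 3106 to 5101. Akr1b8, an aldo-keto reductase, fell in both fits (-0.83, and -0.67 with the ratio), and its value at 5000 µM was -2.06. Vim, the intermediate filament protein of mesenchymal and dedifferentiating cells, fell in both fits (-0.54 ± 0.12, adjusted p = 0.000479, and -0.78 with the ratio) and at 24 h (-0.59). Of 11 S100 and annexin genes tested, 7 were called lower and 2 higher, and S100a6 and Anxa2 fell in both fits (Anxa2 at -0.35, and with the mean of its probe sets -0.27, adjusted p = 0.144). Of 28 actin, tubulin and intermediate filament genes 11 were called lower and 6 higher, and Vim alone was called in both fits. These counts stand beside 18.6% lower and 24% higher and, in both fits, 3.79% of all genes, so the 1 of 28 is near the share of all genes.

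The summed signals of 2 lists of markers of other cells had lower means at 500 µM with an exact permutation p under 0.05. The ranges overlapped in the second of these lists. The summed signal of 11 cholangiocyte markers was 16306 to 17517 in vehicle and 13944 to 14886 at 500 µM (exact permutation p = 0.00794), and that of 18 stellate cell and fibroblast markers 5143 to 5964 and 4253 to 5605 (exact permutation p = 0.0238). Their defining genes Krt7, Krt19, Spp1, Col1a1, Des and Pdgfrb were dimmer than the dimmest gene tested, as were 8 of the 11 and 15 of the 18 markers. Of the 3 cholangiocyte markers tested, Epcam and Ggt1 were called lower and Slc4a2 higher (0.69), and with the ratio 0 were called by limma (1 lower at an unadjusted p under 0.05). Of the 3 stellate cell and fibroblast markers tested, 0 were called without or with the ratio, with changes of -0.32 to 0.17. The permutation p-values of the sums were not adjusted over the lists, and the sums were not fitted with the ratio. Of 19 Kupffer cell and leukocyte markers 16 were that dim, and of 14 markers of sinusoidal endothelium 11; the mean of the first sum was 28549 in vehicle and 26935 at 500 µM (exact permutation p = 0.143), and that of the second 2834 and 3085 (exact permutation p = 0.206). The 12 hepatocyte markers were all above that level, with sums of 410405 to 496865 in vehicle and 415891 to 494835 at 500 µM (exact permutation p = 0.778). The part of these cells in the falls of S100a6, Cryab and Vim was not tested, and in RNA of whole wells fewer cells of a type and less RNA per cell cannot be told apart.

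**Figure D4:**
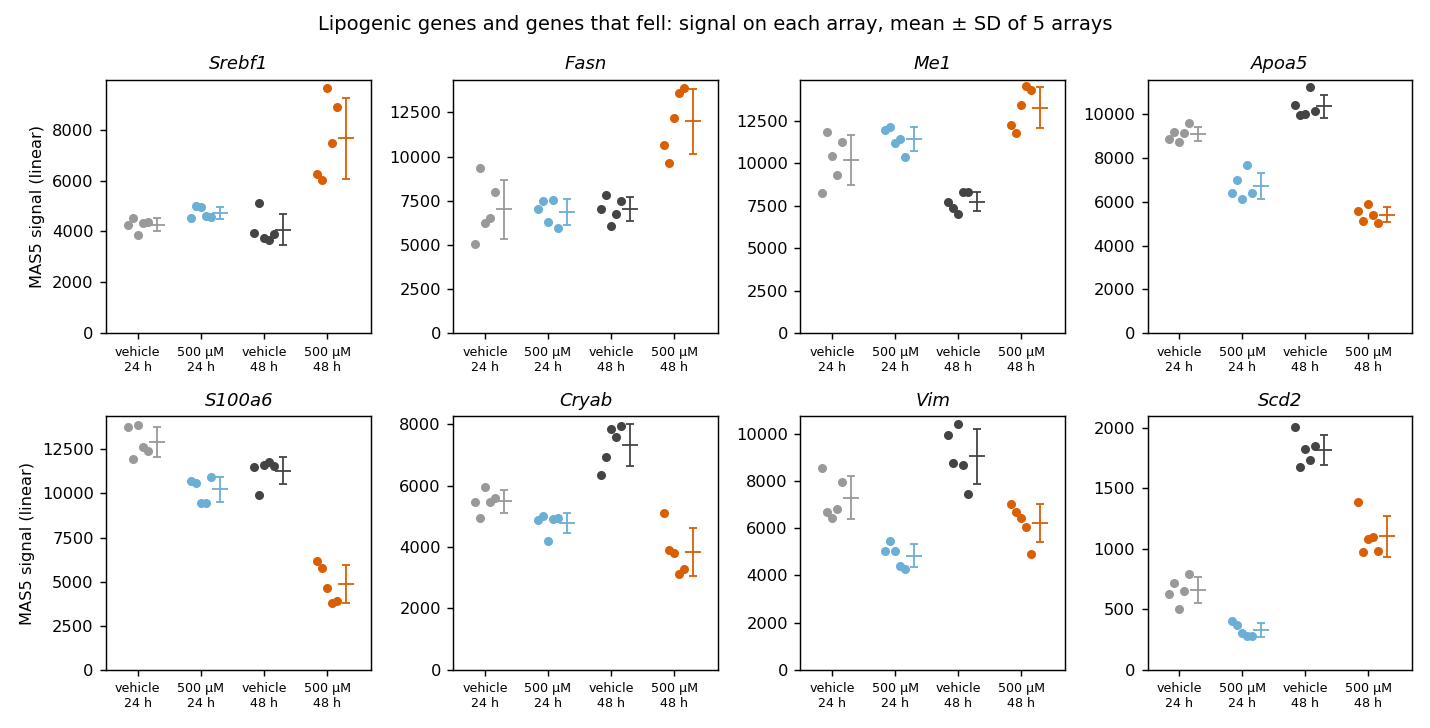
Signal of 8 genes of fatty acid synthesis, lipoproteins, calcium binding, stress protection and the cytoskeleton on each of 20 arrays, on linear axes from 0; points are arrays and bars are mean ± SD of 5. Srebf1, Fasn and Me1 are raised in the 500 µM wells at 48 h and not called at 24 h; Apoa5, Vim and Scd2 are lower at both times.

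The other large changes called in both fits spread over many functions. Of the 10 largest rises, Ehhadh, Cyp4a1, Acsl1 and Lrp1 are given above. Anpep, a membrane aminopeptidase, rose by 1.23 and by 0.71 with the ratio, and Fbxo21, a ubiquitin ligase subunit, by 1.16 and by 0.77 (its second probe set had 0.41 and 0.02). C8h15orf39 rose by 1.63 and by 0.82, Abhd15 by 1.21 and by 0.88, Faxdc2 by 1.13 and by 1.02, and Sema4g, a semaphorin, by 1.11 and by 0.65. Abhd15 and Faxdc2 were also called higher at 24 h (0.62 for both). Among the falls, Exoc1, a subunit of the exocyst, had a change of -1.24 without and -0.53 with the ratio; its slope on the ratio was -1.15 and its other probe sets had values of -0.28 to -0.42. Without and with the ratio, the changes were -0.99 and -0.65 for Uggt1, -0.94 and -0.95 for Sh3rf1, -0.91 and -0.59 for Nsmce4a, -0.91 and -0.77 for Ly6i, and -0.83 and -0.64 for Ddit4l.

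The largest change called without the ratio only was that of Bcar1. Bcar1, an adaptor protein of focal adhesions, had signals of 155, 157, 154, 170 and 120 in vehicle at 48 h and 1017, 227, 1294, 926 and 1279 at 500 µM. The 48 h vehicle signals and the 227 lay under 469, the geometric mean signal of the dimmest gene tested, so the change starts from a dim level. In vehicle at 24 h its signals were 1492, 1110, 1129, 1119 and 1427, on arrays with ratios of 1.99, 1.96, 1.90, 1.54 and 1.49. Its change at 48 h was 2.44 ± 0.48 (adjusted p = 0.000195), and 1.21 with the ratio (adjusted p = 0.285). Ptov1 (1.33 without and 1.01 with the ratio), Plekhm2 (1.28 and 0.81), Gtf3c1 (1.22 and 0.74) and Nfic (1.21 and 1.07) were the next rises of this kind. Entr1 (-1.60 and -0.45), Tti2 (-1.25 and -0.24), Actr2-ps1 (-1.17 and 0.08), Gmnn (-1.05 and -0.76) and Pura (-1.04 and -0.79) were the corresponding falls. Second, dimmer probe sets gave -0.82 for Gmnn, -0.25 for Nfic, -0.15 for Gtf3c1 and, for Tti2, -0.10 and 0.16. None of these was called, and their mean signals of 74.8 to 328 lay under the 469 of the dimmest gene tested. Of 1931 genes with several bright probe sets, 1261 had at least 1 called. For 132 of them probe sets were called in both directions, and for 197 all were called in the same direction. With the ratio 69 had at least 1 called, 0 of them in both directions and 5 with all in the same direction. With so few calls in that fit, the 0 does not show that probe sets agreed better.

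Genes of 3 further lists were called without the ratio and not with it. Of 58 oxidative phosphorylation genes 30 were called lower and 2 higher, of 35 proteasome genes 20 lower and 3 higher, and of 31 cytosolic ribosomal protein genes 13 lower and 0 higher, beside 18.6% lower and 24% higher of all genes. With the ratio 0 genes of these 3 lists were called in either direction by limma; at an unadjusted p under 0.05 it had 12 lower and 0 higher, 2 lower and 3 higher, and 1 lower and 0 higher. Over all genes 3.97% were called in that fit, so a count of 0 lies near the share of all genes. Their median log2 changes were -0.15, -0.17 and -0.15 without and -0.11, 0.02 and -0.09 with the ratio. Positive slopes on the ratio were measured for 16 of 58, 4 of 35 and 2 of 31, beside 54.5% of all genes. At 24 h the medians were 0.05, 0.06 and 0.06, with 0 genes called by limma (5 higher and 1 lower, 3 higher and 1 lower, and 0 at an unadjusted p under 0.05).

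**Figure D5:**
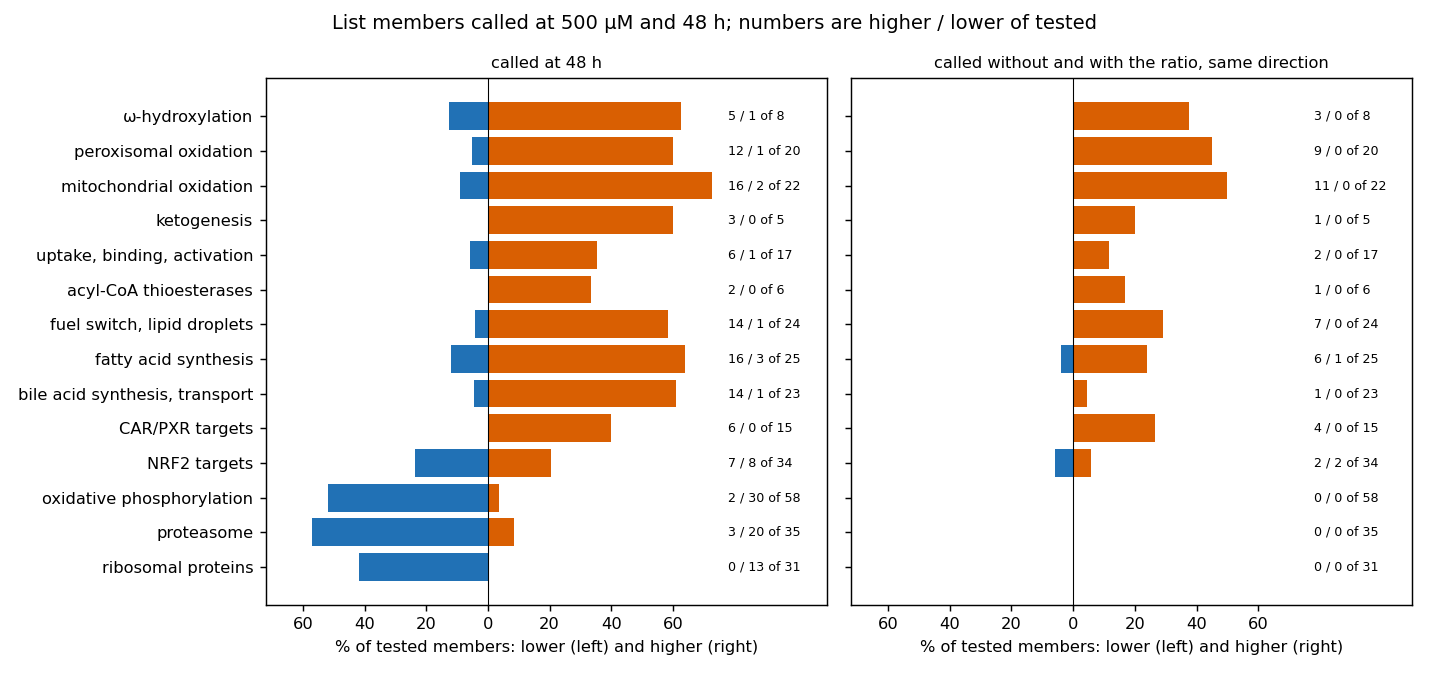
Share of the tested members of 14 gene lists called lower (blue, to the left) and higher (orange, to the right) at 500 µM and 48 h, without the ratio (left panel) and in the same direction in both fits (right panel); the numbers are higher / lower of tested. Mitochondrial oxidation keeps 11 of 22 members in the right panel, proteasome and oxidative phosphorylation 0, beside 3.79% of all genes.

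Several genes linked to the handling of acetaminophen itself were not called, and a few were. Of 16 tested genes of glucuronidation and sulfation 3 were called higher and 2 lower, beside 24% and 18.6% of all genes. Of the 16, 2 rose in both fits, Ugt2b10 and Sult1c3, beside 3.79% of all genes called in both fits. Ugt1a6 had no probe set named for it alone and was not tested. The P450 gene Cyp3a2, which rose in both fits, is given below. Cyp2e1, a main enzyme of its oxidation to the quinone imine, was called higher by 0.30 ± 0.11 (adjusted p = 0.0214) and was not called with the ratio (0.48, adjusted p = 0.051). The call was lost without the first or the third vehicle array and without the second or the third 500 µM array, at values from 0.25. Cyp1a2 (0.19, adjusted p = 0.2), Cyp3a18 (0.04, adjusted p = 0.604) and the sulfotransferase Sult1a1 (-0.08, adjusted p = 0.425) were not called. Of 34 NRF2 targets, which respond to electrophiles and oxidants, 7 were called higher and 8 lower, near the 24% and 18.6% of all genes. A second probe set of Gclc, the catalytic subunit of glutathione synthesis, was called lower in limma's fit over probe sets (-0.39, adjusted p = 0.0278) and had 0.02 with the ratio. The quinone reductase Nqo1 (-0.09, adjusted p = 0.357), the heme oxygenase Hmox1 (-0.17, adjusted p = 0.0791) and Gclc by its brightest probe set (-0.01, adjusted p = 0.931) were not called, and Gclc was called lower at 24 h (-0.25). Gclm, the modifier subunit, fell (-0.42) and lost its call with the ratio (-0.28, adjusted p = 0.121). Keap1, the NRF2 inhibitor, has 2 probe sets called in opposite directions (0.48 and -0.68), so no direction is given for it. Txnrd1 (0.34 without and 0.22 with the ratio, but -0.28 for its second bright probe set and 0.03, adjusted p = 0.812, for the mean of both), Gsta3 (-0.15 and -0.05) and Hspb1 (-0.27 and -0.16) were called without the ratio only. The stress factors Atf3 (-0.08, adjusted p = 0.608) and Ddit3 (-0.07, adjusted p = 0.501) were not called at 48 h, and Ddit3 was called higher at 24 h (0.39). Maff, a small partner of NRF2, fell in both fits (-0.38 and -0.68).

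Of 15 tested CAR and PXR targets, the drug-induced metabolism genes, 6 were called higher and 0 lower, and 4 rose in both fits. These were Cyp3a2 (0.54, and 0.53 with the ratio), Por, Alas1, which begins heme synthesis (0.38 and 0.50), and Cyp2b3 (0.36 and 0.47). None of the 4 was called at 24 h, and the 48 h effect on Cyp3a2 exceeded that at 24 h by 0.34 (adjusted p = 0.0211), without a call when the ratio was a covariate. Of 23 tested genes of bile acid synthesis and transport 14 were called higher and 1 lower, but Abcb11, the canalicular bile salt pump, was the single one to rise in both fits (0.78 and 0.43). Its vehicle mean was 27812 ± 1030 (SD, n = 5) at 24 h, 18083 ± 694 (SD, n = 5) at 48 h and 31016 ± 1200 (SD, n = 5) in the treated wells at 48 h, and its slope on the ratio was 0.60. Cyp7a1, which sets the rate of bile acid production, was called higher by 0.75 ± 0.19 (adjusted p = 0.00242) and was not called with the ratio (0.37, adjusted p = 0.47). Its value at 5000 µM was -1.28. Slco1a4 (0.80 and 0.64) and Akr1d1 (0.53 and 0.62) were called without the ratio only, the latter not without the first vehicle array (0.35).

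The effect of 500 µM differed between 48 and 24 h for 3126 genes (36.6% of those tested), 1886 of them with the higher effect at 48 h. With the ratio as a covariate 3 genes were called in this test.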

How the data were processed

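The values are MAS5 signal intensities, 1 per probe set, as the authors deposited them. Per the submitters' processing notes the tool was MAS5; its version, the scaling target and the scanner are not given here. Trimming 2% from each tail left array means of 1500.55 to 1500.66, so the authors had scaled the arrays to one target. The log2 of these values was used without rescaling or pseudocount. Of 31099 probe sets, 57 were controls, 20826 had 1 gene symbol, 436 had several and 9780 had none listed; symbols were updated to rat RefSeq. The brightest probe set stood for each of 14217 genes, and the brightest 60%, 8531 genes with a geometric mean signal from 469, were tested. Group means were modelled jointly over the 30 arrays in R 4.3.3 (limma 3.58.1, eBayes with an intensity trend; 24 residual and 7.58 prior degrees of freedom). A second fit added each array's β-actin log2 3′/5′ ratio. Changes are differences of mean log2 values with moderated standard errors. The number of arrays limits the precision. The ratios were compared by exact two-sided permutation tests. The fits were tested on simulated data.

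Genes were named by rule: the 10 largest rises and falls called in both fits with groups that do not overlap, the 5 largest each way called without the ratio only, genes of the compound and of PPARα from a fixed list, the genes with the largest difference between times, and up to 4 called members of each list described, first those called in both fits. For these, other probe sets were compared where the text says so. Further list members (such as Ech1, Crot, Cat, Cd36, Slc25a20, Fgf21, Acadm, Elovl6 and Apoa1) were named after their values were seen, to complete a pathway. Gene lists and members were chosen with earlier results of these data known. Other cell types were summed from marker lists, and a marker was dim below the dimmest gene tested. Alternatives tried were other covariates, scalings, a pseudocount of 100, filters and probe set rules, and leaving out each array.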

Additional observations from a re-analysis of the deposited data

Results flagged for a closer look

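In 17 of 192 groups of 5 arrays, 2 for each of 96 named genes, 1 array stood far from the other 4: its gap to the nearest array was over 0.71 of the group's range, which chance gives in about 1 in 20 groups. Among the 500 µM arrays at 48 h, the signals that stood low were Aldh3a2 at 30149 (others 35660 to 38077), Bcar1 at 227 (others 926 to 1294), Exoc1 at 1081 (others 1725 to 1929), Gmnn at 243 (others 431 to 514), Gsta3 at 18437 (others 19660 to 20076), Pura at 143 (others 520 to 611) and Sh3rf1 at 203 (others 508 to 588). Among the 500 µM arrays at 48 h, the signals that stood high were Myh9 at 19818 (others 13154 to 14684), Plin2 at 54703 (others 43589 to 46527), Ptov1 at 1566 (others 868 to 983) and Sult1a1 at 84471 (others 65772 to 70510). Among the vehicle arrays at 48 h, the signals that stood low were Bcar1 at 120 (others 154 to 170), S100a6 at 9915 (others 11525 to 11804) and Tln1 at 278 (others 984 to 1423). Among the vehicle arrays at 48 h, the signals that stood high were Gclc at 13048 (others 11309 to 11740), Hacl1 at 9907 (others 8028 to 8434) and Srebf1 at 5117 (others 3676 to 3932). 

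For 64 of the 96 named genes the effect of 500 µM differed between 48 and 24 h, by limma's test of the difference with Benjamini-Hochberg adjustment over all genes tested, in which 36.6% of all genes were called. The difference was above 0 for 42 and below 0 for 22 of them, and 0 were called when the β-actin ratio was a covariate (38 of the 96 had an unadjusted p under 0.05 in that fit). For genes of fatty acid oxidation, transport and storage, the 48 h effect minus the 24 h effect on the log2 scale was 0.94 for Ehhadh, 0.75 for Pex5, 0.59 for Abhd15, 0.55 for Hadha, 0.54 for Cpt1a, 0.50 for Pnpla2, 0.48 for Por, 0.46 for Cpt2, 0.45 for Slc27a5, 0.42 for Cpt1b, 0.40 for Aldh3a2, 0.37 for Slc16a6, 0.30 for Acsl1, 0.29 for Slc16a1, 0.20 for Hsd17b4 and 0.17 for Lonp2. For genes of fatty acid synthesis, lipoproteins and bile acids, the 48 h effect minus the 24 h effect on the log2 scale was 1.12 for Lrp1, 0.90 for Abcb11, 0.80 for Slco1a4, 0.77 for Fasn, 0.75 for Srebf1, 0.64 for Mttp, 0.60 for Me1 and -0.50 for Apoa5. For genes of drug metabolism and stress protection, the 48 h effect minus the 24 h effect on the log2 scale was 0.68 for Keap1, 0.44 for Txnrd1, 0.34 for Cyp3a2, 0.32 for Alas1, 0.25 for Gclc, -0.24 for Gsta3, -0.45 for Gclm, -0.46 for Ddit3, -0.62 for Ddit4l, -0.75 for Cryab and -0.76 for Akr1b8. The value for Keap1 is that of its brightest probe set; its second probe set ran the other way, at 0.42 at 24 h and -0.68 at 48 h. For genes of calcium binding and the cytoskeleton, the 48 h effect minus the 24 h effect on the log2 scale was 3.62 for Bcar1, 1.27 for Tln1, 0.94 for Myh9, 0.94 for Zyx, -0.23 for Anxa2, -0.25 for S100a10, -0.41 for S100a13, -0.44 for Anxa3 and -0.90 for S100a6. For genes of other functions, the 48 h effect minus the 24 h effect on the log2 scale was 2.50 for Ptov1, 1.72 for Plekhm2, 1.67 for C8h15orf39, 1.59 for Nfic, 1.51 for Mknk2, 1.49 for Gtf3c1, 1.40 for Sema4g, 1.28 for Fbxo21, 1.24 for Anpep, 0.51 for Faxdc2, -0.65 for Ly6i, -0.88 for Nsmce4a, -0.95 for Gmnn, -1.06 for Uggt1, -1.24 for Sh3rf1, -1.25 for Exoc1, -1.27 for Pura, -1.78 for Actr2-ps1, -1.89 for Tti2 and -1.95 for Entr1.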

How the results depend on the processing

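The 3632 genes called at 500 µM and 48 h became 339 with the β-actin ratio, 507 with the GAPDH ratio and 153 with the β-actin ratio and median centring. Leaving out 1 array gave 3069 to 3509. The 58 PPARα list members called higher became 37 with the β-actin ratio, 33 with that ratio and centring, and 39 with GAPDH. The 323 genes called in both fits became 149 with median centring and 214 with all named genes tested, and 155 to 403 without 1 array. The 82 genes called in the same direction at both times became 49 with median centring, and 75 to 84 without 1 array. The β-actin ratio difference of 0.62 was 0.58 to 0.65 without 1 array and -1.26 for the dim hexokinase probe sets. The cause of these changes was not tested. The count of PPARα members higher in both fits, an alternative chosen after the data were seen, was 29 to 37, beside 34, under the other scalings, the pseudocount, the probe set rule, the filters and without 1 array; it was not computed with the GAPDH ratio, with only the 10 arrays or without the intensity trend.

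Of 96 genes named by rule, 32 lost their call with the β-actin ratio and 27 with the GAPDH ratio, and 90 kept direction and call without any 1 array. Signs turned for Actr2-ps1 with the β-actin ratio (0.0819, and 0.15 with median centring too), Gsta3 with the ratio and centring (0.023), and, averaging probe sets, for Keap1 (-0.10) and Pex11a (-0.0121); that average also removed the call of Txnrd1 (0.03). Fabp2, Cyp2e1, Slc27a5 and Hspb1 each lost their call without any of 4 arrays, Akr1d1 without 1. Median centring removed the calls of Fabp2 (-0.49), Gsta3 (-0.11) and Hspb1 (-0.23). The probe sets of dim genes limit what can be read, and the dimmest 40% of the 14217 genes with a symbol were not tested.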

Other observations

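Of 40 tested ATF4 and CHOP targets 19 were called higher and 1 lower, and 3 rose in both fits. At 24 h 4 were called higher, and 0 were called higher at both times. The median log2 change at 48 h was 0.19, and 0.25 with the ratio. At 5000 µM and 48 h 1 was called higher and 25 lower, beside 14.6% and 18% of all genes. Of 29 genes of endoplasmic reticulum chaperones and the unfolded protein response 8 were called higher and 10 lower, and with the ratio 0 were called by limma (4 higher and 7 lower at an unadjusted p under 0.05). Of 27 heat shock genes 6 were called higher and 8 lower, with 1 rise and 1 fall in both fits. Of 22 cholesterol synthesis genes 6 were called higher and 8 lower, with 1 of each in both fits.

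Of 18 p53 targets 3 were called higher and 6 lower, and of 13 circadian clock genes 7 were called higher, without a call in both fits in either list. Of the 13 clock genes, 12 had a positive slope on the β-actin ratio at 24 h, beside 54.5% of all genes. Of 48 genes of the urea cycle and amino acid catabolism 15 were called higher and 4 lower, and 1 rose in both fits. Of 24 glutathione transferases and peroxidases 2 were called higher and 7 lower, and 2 fell in both fits.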
